A study of Mus musculus with 14 samples.

Results

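In a mouse line of multipotent blood progenitors, 2618 stretches of the genome carried peaks of ETS transcription factors and of no other factor assayed. They were found by merging all peaks of 13 peak lists that touched or overlapped, on 19 autosomes and chromosome X, and keeping merged regions with a peak of Spi1, a peak of Erg or of Fli1, and no peak of the other 10 factors. The 13 lists held 279955 peaks, which merged into 121980 regions, so these ETS-only regions were 2.15% of all regions (exact Clopper-Pearson 95% interval 2.07 to 2.23). The regions were chosen by the presence and absence of peaks, so the factors they hold are a description and not a finding, and the name says only what the 13 lists show: a factor that was not assayed may also be there.

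The study mapped binding by chromatin immunoprecipitation and sequencing (ChIP-seq) of the ETS factors Spi1, Erg and Fli1 and of 10 others: Runx1, Meis1, Gata2, the repressors Gfi1 and Gfi1b, the C/EBP factors Cebpa and Cebpb, and Tal1, Lyl1 and their cofactor Lmo2, with 1 library per factor. All libraries came from 1 line, Hoxb8-FL, in which conditional Hoxb8, kept active by estradiol, and FLT3 ligand hold progenitors in culture; the cells had no further treatment and are labelled LMPP-like, that is, resembling lymphoid-primed multipotent progenitors. Cells were fixed for 10 min in formaldehyde at 0.4% or 1%, and the labels do not say which factor had which. A rabbit IgG library belongs to the series and was not analysed here. Peak lists hold no expression, so the labelled cell type could not be checked against marker genes, and a line held by Hoxb8 is a model of a progenitor rather than a progenitor taken from marrow.

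ETS factors share a winged-helix domain that reads a short GGAA core, and the bases on either side of the core set which member binds best. Spi1, also called PU.1, prefers purine-rich sites in which A precedes the core, and it is needed for the myeloid and B lymphoid lineages. Erg and Fli1 are close relatives of each other, belong to the larger class of ETS factors that prefer a C before the core, and are needed for blood stem cells and for megakaryocytes. ETS sites with a C before the core are common in promoters of housekeeping genes. Several ETS factors can bind the same such site.

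Sequence was at hand for promoters only, in windows from 250 bases before to 50 bases after a gene's start (RefSeq, GRCm38.p6). The 5 printed here are the listed genes with an ETS-only region nearest to the start, and they show how the sites lie under the peaks. Rps6 came from the fixed rule (a region with all 3 ETS factors covering the whole window of a listed gene), and the other 4 were chosen after their values were seen. Each runs 5′ to 3′ along the gene's strand, and capitals mark CGGAAG or AGGAAG on either strand (CTTCCG and CTTCCT are their reverse complements). Rps6, a protein of the small ribosomal subunit, has its window on the minus strand at chr4:86857318-86857617, wholly inside a region with Spi1, Erg and Fli1 (chr4:86857192-86857620). Ndufv1, a subunit of respiratory complex I, has its window on the minus strand at chr19:4012706-4013005, nearly all inside a region with Spi1, Erg and Fli1 (chr19:4012555-4013000) whose midpoint lay 22 bp from the start. Btk, a kinase of B cell receptor signalling, has its window on the minus strand at chrX:134583091-134583390, and its region with Spi1 and Fli1 (chrX:134582898-134583322) was centred 30 bp from the start. Sf3a1, a component of the spliceosome, has its window on the plus strand at chr11:4160104-4160403, in a region with Spi1 and Fli1 (chr11:4160062-4160534). Psmc4, an ATPase of the proteasome, has its window on the minus strand at chr7:28050043-28050342, in a region with Spi1 and Fli1 (chr7:28049921-28050379).
Rps6: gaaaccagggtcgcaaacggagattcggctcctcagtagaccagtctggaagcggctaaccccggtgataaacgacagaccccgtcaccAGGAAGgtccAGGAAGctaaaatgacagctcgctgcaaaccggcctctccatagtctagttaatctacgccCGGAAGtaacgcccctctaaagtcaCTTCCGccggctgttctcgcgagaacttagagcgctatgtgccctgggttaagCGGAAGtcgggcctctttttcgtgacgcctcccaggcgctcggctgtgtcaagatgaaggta
Ndufv1: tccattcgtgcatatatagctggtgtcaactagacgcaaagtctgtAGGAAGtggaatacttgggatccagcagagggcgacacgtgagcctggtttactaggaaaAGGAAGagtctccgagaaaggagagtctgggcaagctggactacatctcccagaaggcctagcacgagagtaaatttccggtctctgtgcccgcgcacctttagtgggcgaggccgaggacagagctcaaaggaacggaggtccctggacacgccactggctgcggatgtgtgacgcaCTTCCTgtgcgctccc
Btk: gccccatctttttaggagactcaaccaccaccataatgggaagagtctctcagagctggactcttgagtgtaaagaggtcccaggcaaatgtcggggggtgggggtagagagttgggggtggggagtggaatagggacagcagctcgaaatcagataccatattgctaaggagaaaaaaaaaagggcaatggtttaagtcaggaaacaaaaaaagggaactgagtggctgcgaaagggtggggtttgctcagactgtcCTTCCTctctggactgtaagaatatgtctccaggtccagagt
Sf3a1: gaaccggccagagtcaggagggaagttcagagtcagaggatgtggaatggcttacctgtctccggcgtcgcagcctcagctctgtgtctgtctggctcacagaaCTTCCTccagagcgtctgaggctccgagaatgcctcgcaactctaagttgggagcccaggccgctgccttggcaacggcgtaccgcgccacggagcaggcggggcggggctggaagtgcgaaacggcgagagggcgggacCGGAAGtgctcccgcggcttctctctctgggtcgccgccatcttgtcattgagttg
Psmc4: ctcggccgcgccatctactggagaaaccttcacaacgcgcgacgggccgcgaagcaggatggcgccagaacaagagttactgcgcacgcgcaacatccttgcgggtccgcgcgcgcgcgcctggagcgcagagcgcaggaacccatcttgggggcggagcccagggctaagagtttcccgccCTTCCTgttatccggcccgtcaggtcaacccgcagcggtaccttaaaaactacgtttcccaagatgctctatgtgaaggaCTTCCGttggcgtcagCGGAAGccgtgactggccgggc

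In Rps6 the middles of 3 CGGAAG matches lay 87, 62 and 9 bp before the start, and those of 2 AGGAAG matches lay 158 and 148 bp before it. The Spi1, Erg and Fli1 midpoints lay 54, 25 and 49 bp before the same start, so the nearest CGGAAG was 8 bp from the Spi1 midpoint. Ndufv1, where all 3 factors had a peak, held 3 AGGAAG and no CGGAAG, and its nearest AGGAAG was 76 bp from the Spi1 midpoint. Counting both strands, its window held 7 GGAA cores. These include unmarked ones such as ttccgg, which reads CCGGAA on the other strand, with a C before the core. Btk also held no CGGAAG. Its single AGGAAG lay 6 bp from the Spi1 midpoint. Sf3a1 had CGGAAG 3 bp before the start and AGGAAG 143 bp before it, and its Spi1 midpoint, 92 bp before the start, lay between them. Psmc4 had CGGAAG 15 and 31 bp after the start and AGGAAG 65 bp before it, with the Spi1 and Fli1 midpoints 29 and 88 bp before. These 5 promoters thus hold the marked sites in different numbers, and of the marked kinds Ndufv1 and Btk hold AGGAAG only.

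Fli1 was the usual partner of Spi1 in the ETS-only regions. Fli1 without Erg was present in 2258 of them (86.2%, 95% interval 84.9 to 87.5), Erg and Fli1 together in 325 (12.4%, 11.2 to 13.7) and Erg without Fli1 in 35 (1.34%, 0.933 to 1.85). Among the 14882 regions with Spi1, Erg or Fli1 and at least 1 of the other 10 factors, Erg and Fli1 were both present in 45.6%. The Fli1 list is longer than the Erg list (22034 against 9014 peaks), and the Spi1 list is the longest of all (76378). ETS-only regions took 11.7% of the Fli1 peaks, 3.99% of the Erg peaks and 3.43% of the Spi1 peaks. Each held exactly 1 Spi1 peak, and their median width was 426 bp (interquartile range 411 to 451) against a fixed 400 bp for a single peak.

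Other classes of region serve below as comparison: 44679 with Spi1 and no other factor, the 14882 with Spi1, Erg or Fli1 and others, 5015 with Spi1 and C/EBP factors only, and 1017 with Erg or Fli1, no Spi1 and no other factor. All intervals cover counting error only, because each factor has 1 library and no replicate culture or immunoprecipitation, and no p-value was computed. Regions of 1 class share these libraries and are not replicates.

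ETS-only regions lay at gene starts more often than regions of Spi1 alone. Of all merged regions on the chromosomes with start sites, 9.56% had their midpoint within 1 kb of the start of a protein-coding gene (11290 of 118125). Among ETS-only regions the share was 19.6% (495 of 2528, 95% interval 18 to 21.2), and among regions with Spi1 alone it was 5.42% (2343 of 43201), a difference of 14.2 percentage points (Newcombe 95% interval 12.6 to 15.8). It was 16.3% with other factors present (2349 of 14453), 3.33 points lower than without them (1.71 to 5.03). Regions with Spi1 and C/EBP factors only stood at 8.48% (413 of 4872). Regions with Erg or Fli1 and no Spi1 were at starts more often than the ETS-only regions, at 39.9% (396 of 993), and the difference of -20.3 points had an interval of -23.7 to -16.9.

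These shares moved with the lengths of the lists. With only the first 9014 lines of each list kept, the length of the Erg list, 794 ETS-only regions were left, with 10.7% at starts (95% interval 8.63 to 13.1) beside 6.54% of regions with Spi1 alone. ETS-only regions stayed above regions with Spi1 alone in that setting, by less. Gata2 (3217 peaks), Gfi1b (8675) and Lyl1 (8903) have shorter lists, which were kept whole.

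**Figure D1:**
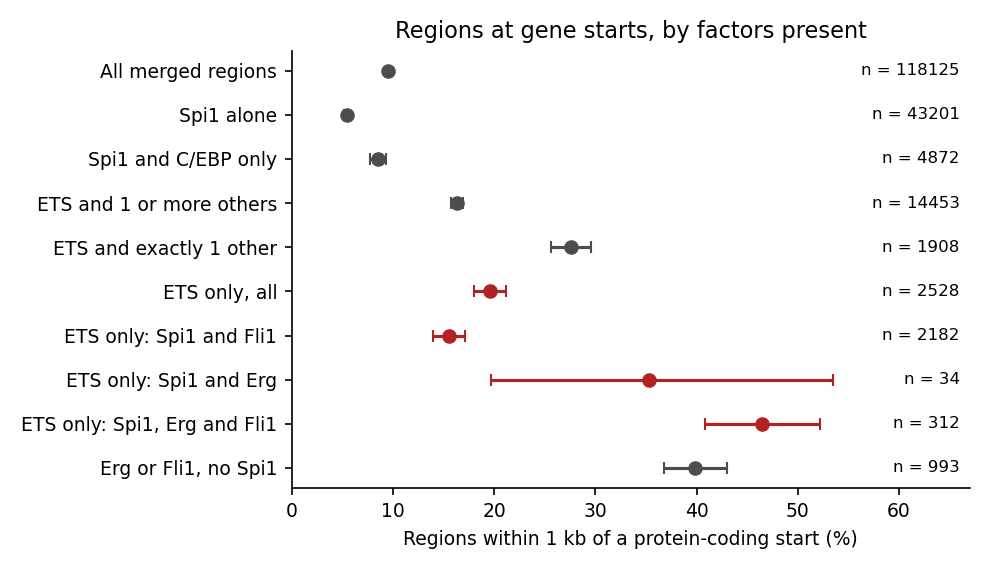
Share of regions (percent) whose midpoint lies within 1 kb of a protein-coding start, by the factors present; points are shares and bars are exact 95% intervals for counting error. ETS-only regions with Erg and Fli1 stand at 46.5% and those with Fli1 only at 15.5%, both above the 5.42% of regions with Spi1 alone.

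The share at starts was far from even among the ETS-only regions. With Erg and Fli1 both present it was 46.5% (145 of 312, 40.8 to 52.2), with Fli1 only 15.5% (338 of 2182, 14.0 to 17.1), and with Erg only 35.3% (12 of 34, 19.7 to 53.5). The difference between the first pair was 31.0 points (25.3 to 36.7). Regions with Fli1 only still exceeded those with Spi1 alone by 10.1 points (8.59 to 11.7). Where Erg and Fli1 were both present but other factors too, the share was 19.5%, which is 27.0 points lower than in ETS-only regions with the same partners (21.5 to 32.6). For Fli1 only the corresponding gap was 2.10 points (0.448 to 3.85).

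The fall with other factors came with their number and not with the first of them. Regions with Spi1, Erg or Fli1 and exactly 1 other factor stood at 27.6% (526 of 1908), higher than the ETS-only regions, which differed from them by -7.99 points (-10.5 to -5.46). With 2, 3, 4 and 5 other factors the shares were 27.0%, 22.1%, 15.9% and 10.7%, and with 9 others 2.26%. Within the regions that held both Erg and Fli1, those with 1 other factor (46.2%, 222 of 481) and the ETS-only regions differed by 0.321 points, with an interval of -6.73 to 7.40, so that neither can be called higher. Within Fli1 only, 1 other factor gave 21.3% (295 of 1388), and the ETS-only regions differed from that by -5.76 points (-8.43 to -3.16).

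Regions at a start sat close to it. Of the 495, 264 (53.3%) lay within 100 bp of the start, against 20.7% of the regions with Spi1 alone near a start (484 of 2343). The other classes with Erg or Fli1 were as close, at 51% with other factors present and 54.3% without Spi1. Their median position was 16 bp upstream (interquartile range 96 bp upstream to 69 bp downstream), with 279 upstream and 216 downstream. Starts on opposite strands both lay within 1 kb of 52 of the 495 (10.5%, 7.95 to 13.5), and of 5.63% of the regions with Spi1 alone near a start (132 of 2343). With other factors present the share was 10.6% (250 of 2349) and without Spi1 12.4% (49 of 396). Promoters that fire in both directions from a shared stretch are typical of housekeeping gene pairs. Whether the starts counted here point away from each other was not checked, so the count need not be of such promoters.

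**Figure D2:**
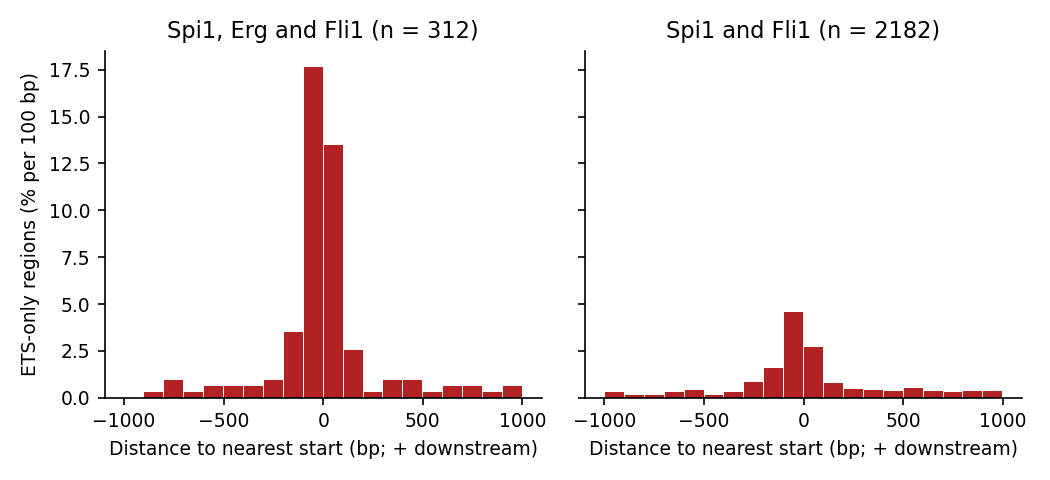
Position of ETS-only regions relative to the nearest protein-coding start, in bp (positive is downstream), as percent of regions per 100 bp, in 1 panel for each set of partners. The bins beside the start are the highest: 31.1% of regions with Erg and Fli1 and 7.29% of those with Fli1 only lie within 100 bp of a start.

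Most ETS-only regions nevertheless lay away from starts. Between 1 and 10 kb of the nearest start lay 19% (480), between 10 and 100 kb 42.3% (1069), and beyond 100 kb 19.1% (484). The median distance was 18.8 kb (interquartile range 2.76 to 68.5), against 34.7 kb for Spi1 alone and 32.0 kb for all regions. With Erg and Fli1 both present the median was 2.19 kb, and with Fli1 only 21.4 kb. A gene body of any protein-coding gene held 56.4% of the ETS-only midpoints, near the background of 54.2% for all regions.

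The letters around the ETS core differed between the classes. In all, 195 promoter windows of 187 genes lay wholly inside ETS-only regions (177 regions; windows of neighbouring starts overlap and are not independent). CGGAAG, on either strand, was in 68.7% of them (134 of 195, 61.7 to 75.2) and in 21.3% of all 21044 promoter windows. In the 238 windows inside regions with Spi1 alone its share was 23.9% (18.7 to 29.9), which left a difference of 44.8 points (35.8 to 52.6). AGGAAG was in 51.8% of the ETS-only windows (44.5 to 59.0), 34.1% of all windows and 54.6% of the windows with Spi1 alone, and the interval of the last difference, -12.2 to 6.56 points, includes 0. In windows of regions with Erg or Fli1 and no Spi1 (102 windows) CGGAAG was in 53.9% (43.8 to 63.8) and AGGAAG in 23.5% (15.7 to 33.0), the latter 28.3 points below the ETS-only windows (16.8 to 38.2 points). Both hexamers were chosen with earlier results known; each may overlap the longer sites below.

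Held together in 1 window, both hexamers were found in 31.3% of the ETS-only windows (61 of 195, 24.8 to 38.3), against 10.9% with Spi1 alone (26 of 238), 6.86% without Spi1 (7 of 102) and 7.05% of all windows. With other factors present the share was 27.8% (447 of 1608, 25.6 to 30.1), which overlaps that of the ETS-only windows. CGGAAG without AGGAAG was in 37.4% of the ETS-only windows and AGGAAG without CGGAAG in 20.5%. With Spi1 alone the order was the other way round, at 13% and 43.7%. Neither hexamer was in 10.8% of the ETS-only windows (21 of 195), and a window with neither says only that these letters are not in it. In windows of regions with other factors present, CGGAAG was in 61.9% and AGGAAG in 50% of 1608, and the intervals of both differences include 0 (-0.368 to 13.4 and -5.60 to 9.12 points).

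Longer sites were searched too. A class I ETS site (GCGGAAGT, CCGGAAGT or ACCGGAAG, both strands) was in 34.9% of the ETS-only windows (68 of 195, 28.2 to 42.0), 8.82% of those with Spi1 alone and 8.47% of all windows. It was in 35.9% of the windows with other factors present and 28.4% of those without Spi1, and the intervals of both differences from the ETS-only windows include 0 (-7.78 to 6.29 and -4.91 to 16.9 points). A PU.1 type site (GAGGAAGT or AGAGGAAG) was in 15.4% (10.6 to 21.2), 19.3% and 6.55%. It was in 0.980% of windows without Spi1. The core GGAA was in 100% of the ETS-only windows, but also in 95.7% of all windows, so its presence tells little. Within the ETS-only regions, a class I site was in 52.5% of the 61 windows with Erg and Fli1 (39.3 to 65.4) and in 27.8% of the 126 with Fli1 only, a difference of 24.7 points (9.79 to 38.6).

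Letters of 4 other kinds of site were searched, and none for Meis1, Gfi1 or Gfi1b. A Runx site (TGTGGT) was in 9.74% of the 195 windows against 14.8% of all. It was in 15.5% of the windows with other factors present, a difference of -5.80 points (-9.69 to -0.552). Those regions may hold Runx1 peaks, which the rule keeps out of the ETS-only regions. The share was 14.3% with Spi1 alone and 12.7% without Spi1. Intervals of both differences from the ETS-only windows include 0 (-10.6 to 1.76 and -11.6 to 4.15 points). The ETS-only windows had a Gata site (AGATAA) in 4.62% against 9.68% of all windows, and an E-box (CAGCTG or CAGATG) in 17.9% against 27.8%. Low Gata shares were not particular to them, at 4.66% with other factors present, 4.90% without Spi1 and 5.88% with Spi1 alone. E-box shares in these classes were 22.1%, 18.6% and 26.1%. A C/EBP site (TTGCGCAA or TTGCGAAA) was in 0 of 195 (exact interval up to 1.87%), against 0.413% of all. It was also in 0 of 238 windows with Spi1 alone and 0 of 102 without Spi1, and in 1.12% with other factors present. These letters describe the windows and say nothing about whether a factor binds there.

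Base composition moved with these classes. The median GC content was 61.3% in the ETS-only windows, 58.7% with Spi1 alone and 56.7% over all windows, and the median number of CpG was 24, 15 and 13. Within the windows of 60 to 70% GC, CGGAAG was in 72.4% of the ETS-only windows (63 of 87), 29.6% of those with Spi1 alone and 33.7% of all. From 50 to 60% GC the shares were 70.3% (45 of 64), 18.7% and 22.1%. At 70% GC or more they were 70% (21 of 30), 31.6% (6 of 19) and 26.3%. Below 50% GC, where the ETS-only windows were few, they were 35.7% (5 of 14), 22.6% (7 of 31) and 6.69%. The ETS-only share was above that with Spi1 alone in each band, but below 50% and from 70% GC their intervals overlap. Below 50% GC it was 38.3% with other factors (51 of 133) and 5 of 6 without Spi1, with intervals that overlap the ETS-only one. In the other bands, from low to high GC, windows with other factors present stood at 56.0%, 69.5% and 66.5%. Those without Spi1 stood at 43.8%, 53.5% and 61.9%.

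The matches gathered under the peaks. Within 25 bp of the Spi1 midpoint, the promoter sequence at 379 ETS-only regions held 11.2 CGGAAG per kb (exact Poisson interval 9.47 to 13), and from 150 to 200 bp away it held 1.66 per kb. AGGAAG fell from 6.15 (4.92 to 7.59) to 1.01 per kb over the same distance. At 973 regions with Spi1 alone the mix within 25 bp was the reverse, with 2.60 CGGAAG (2.06 to 3.24) and 8.46 AGGAAG per kb (7.46 to 9.56). Around the Fli1 midpoint of regions without Spi1 (302), CGGAAG stood at 6.69 per kb (5.29 to 8.35) and AGGAAG at 1.63 (0.981 to 2.55). Around the Fli1 midpoint of ETS-only regions (367) they stood at 9.93 and 4.41 per kb.

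**Figure D3:**
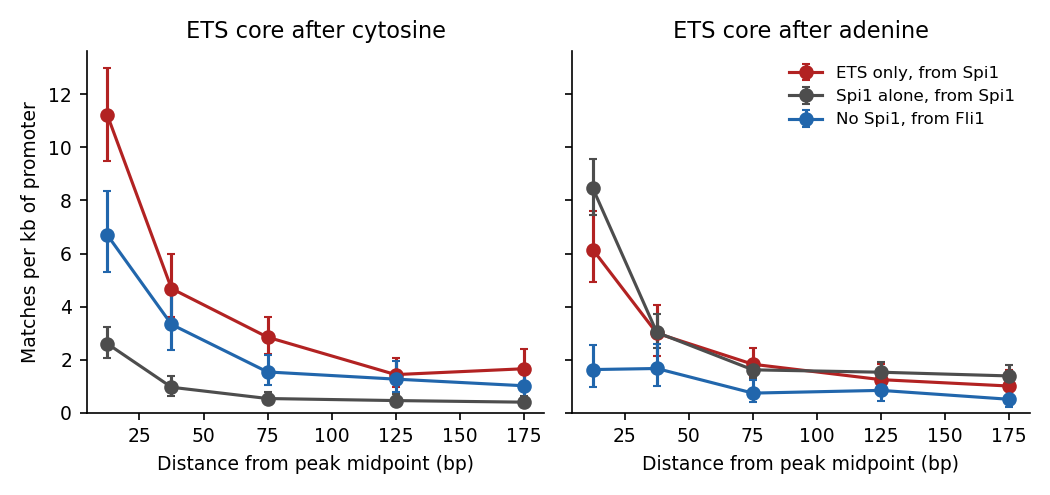
Matches to CGGAAG (left) and AGGAAG (right) per kb of promoter sequence by distance from the peak midpoint in bp, for ETS-only regions and regions with Spi1 alone (Spi1 midpoint) and regions without Spi1 (Fli1 midpoint); bars are exact 95% Poisson intervals. Within 25 bp, CGGAAG is highest in the ETS-only regions (11.2 per kb) and AGGAAG in the regions with Spi1 alone (8.46 per kb).

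Spi1 and Fli1 midpoints lay close together in the ETS-only regions. The median distance was 23 bp (order-statistic 95% interval 22 to 25, interquartile range 10 to 48, 2583 regions), and 76.5% of pairs lay within 50 bp. In regions with other factors it was 31 bp (30 to 32, 14697 regions). It grew with the number of other factors, from 27 bp with exactly 1 (26 to 29) to 36 bp with 7 to 10. The merging rule bears on these comparisons. Spi1 and Fli1 peaks alone merge only with midpoints up to 400 bp apart, while peaks of other factors can bridge wider pairs (up to 940 bp). How far this moved the medians was not tested. Among the ETS-only regions the median distance between Spi1 and Fli1 was 34 bp at gene starts (29 to 40, 483 regions). Away from starts it was 22 bp (20 to 23, 2011 regions). Spi1 and Erg lay 37 bp apart (32 to 43, 360 regions), and 36 bp apart with other factors present. Where all 3 factors were present, Erg and Fli1 lay 23 bp apart (20 to 26) and the outermost midpoints spanned 49 bp (44 to 56, 325 regions).

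The 5 regions with the closest set of 3 midpoints spanned 2 to 5 bp. The closest, 2 bp, was chr5:145204292-145204693, 13 kb upstream of the start of Atp5j2, a subunit of ATP synthase. A span of 4 bp was found at chr5:29434471-29434874, centred 5 bp after the start of Nom1, a nucleolar protein. Another of 4 bp, chr7:45896433-45896836, lay inside a gene 23.8 kb from the start of Kdelr1, a receptor that returns proteins to the endoplasmic reticulum. The third of 4 bp, chrX:134566544-134566947, lay inside Btk, 16.4 kb after its start, so that Btk held a region with all 3 factors besides the one at its promoter printed above. The span of 5 bp, chr8:84856773-84857177, lay 11 bp before the start of Farsa, a subunit of the phenylalanine tRNA ligase.

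In the deposited lists, ETS-only regions came early for Spi1 and late for Fli1 and Erg. The lines of the lists are not in order of position and their order is not explained in the sources used here, so a place in a list is the share of lines above a peak and not a strength of binding. The median Spi1 peak of an ETS-only region stood 23.6% of the way down the Spi1 list (22.4 to 25.1), against 60.7% for regions with Spi1 alone (60.4 to 61.1) and 25.2% with other factors present. The median Fli1 peak stood at 67.3% (65.7 to 68.6), against 41.9% with other factors (41.1 to 42.7), and the median Erg peak at 72.5% (69.8 to 74.7), against 46.6%. Neighbouring classes stood near the ETS-only regions: those with exactly 1 other factor at 26.6% for Spi1, 61.4% for Fli1 and 65.6% for Erg, and those without Spi1 at 75.1% for Fli1 and 75% for Erg. The first of 10 equal parts of the Spi1 list had 8.66% of its peaks in ETS-only regions and the last had 0.916%. In the Fli1 list these shares were 3.54% and 19.1%.

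At gene starts the pattern for Spi1 was less marked. Spi1 peaks of ETS-only regions near starts stood at 45.3% (41.1 to 49.9, 495 regions) and those away from starts at 20.2% (19.1 to 21.5, 2033 regions). For Fli1 the medians were 60% and 68.8%. Regions with Erg and Fli1 stood at 38.1% in the Spi1 list and 44.1% in the Fli1 list, and those with Fli1 only at 21.6% and 70.3%. The ETS-only regions with both partners thus stood earlier for Fli1 and later for Spi1.

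**Figure D4:**
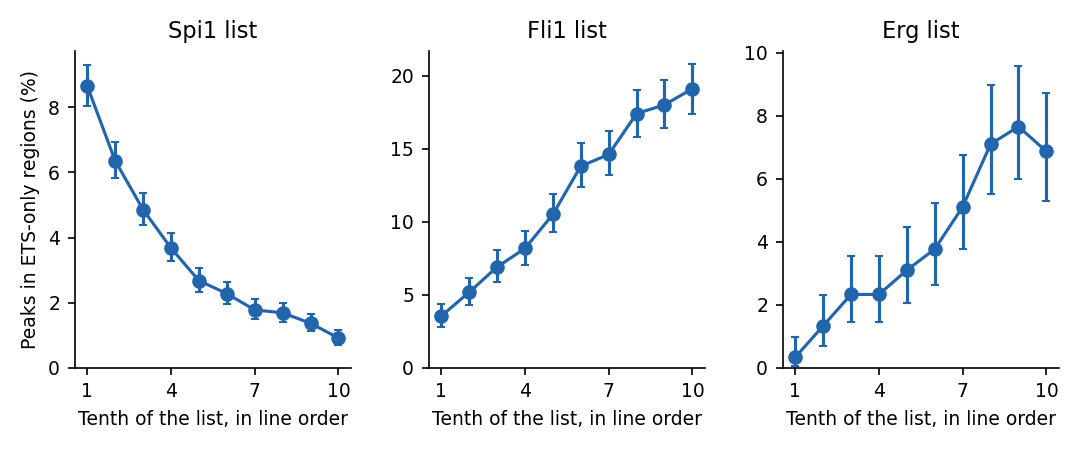
Percent of the peaks of the Spi1, Erg and Fli1 lists that lie in ETS-only regions, for 10 equal parts of each list in line order; bars are exact 95% intervals, and the 3 vertical axes differ. The share falls along the Spi1 list from 8.66% to 0.916% and rises along the Fli1 list from 3.54% to 19.1%.

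ETS-only regions were seldom far from binding by other factors. From midpoint to midpoint, the median distance to the nearest region with another factor was 4.77 kb (4.45 to 5.12). It was 6.32 kb from regions with Spi1 alone (6.21 to 6.42) and 3.46 kb from regions without Spi1. Measured instead from edge to edge, a peak of another factor lay within 1 kb of 603 ETS-only regions (23.0%) and within 10 kb of 1883 (71.9%). Between midpoints, the median distance to the next ETS-only region was 154 kb (146 to 165), and 125 (4.77%) had one within 10 kb. ETS-only regions were only 2.15% of all regions, and their spacing was not compared with that of an equally small set.

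Many regions lay just outside the rule. Next to the 2618 stood 1970 regions with exactly 1 other factor, which was Lmo2 in 52.2% (1029), Runx1 in 13.4% (263), Cebpb in 11.6% (229), Cebpa in 8.12% (160) and Meis1 in 5.79% (114). Lyl1 was the other factor in 4 of them. Spi1 and partner midpoints lay over 350 and up to 400 bp apart in 17 ETS-only regions just inside the rule, and 164 Spi1 peaks had the nearest Erg or Fli1 midpoint over 400 and up to 450 bp away, just outside it. The smallest gap between an ETS-only region and a peak of another factor was 1 bp, and 101 of the regions (3.86%) had one within 100 bp.

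At the level of genes, 549 of 17273 protein-coding genes with a start in the reference (3.18%) had an ETS-only region within 1 kb of it. A region with another factor also lay within 1 kb for 192 of these (35.0%, 31.0 to 39.1), and for 41.5% of all genes with a start. The rule keeps other factors out of the ETS-only region, which takes up part of that window, so these shares are not alike. Of the genes in the 14 lists, 11 had an ETS-only region at the start. They were Ndufv1 (22 bp), Tfb1m (72 bp), an rRNA methyltransferase of mitochondria, and Tfb2m (105 bp), a mitochondrial transcription factor, among 16 mitochondrial genes. They were also Sf3a1 (56 bp) and Dhx15 (647 bp), an RNA helicase of the spliceosome, among 19 splicing genes, and Mcm2 (166 bp), part of the replicative helicase, and Atm (150 bp), a kinase of the DNA damage response, among 17. Rps6 (39 bp) was the 1 of 13 ribosomal protein genes and Psmc4 (58 bp) the 1 of 18 proteasome and ubiquitin genes. The other two were Btk, among 16 PU.1 target genes of myeloid cells, and Syk (358 bp), a kinase of immune receptor signalling, among 15 leukocyte signalling genes. No start in the reference of the 21 ETS family, 19 lymphoid progenitor, 16 translation, 14 erythroid and megakaryocyte, 16 liver and 11 neuron genes had one. Each list is short, and no list is set apart by counts of 0 to 3.

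Within the gene body and 50 kb either side, called the locus here, 5227 of 21627 protein-coding genes had an ETS-only region (24.2%). Of the 13 genes encoding the assayed factors, 9 had at least 1: Cebpa, Cebpb, Erg, Fli1, Gfi1, Meis1, Runx1, Spi1 and Tal1, but not Gata2, Gfi1b, Lmo2 or Lyl1. Their loci were of usual length (median 115 kb, against 117 kb for all genes), and all 13 also held a region with Spi1, Erg or Fli1 and other factors, which 59.5% of all genes did. None of the 10 factor genes with a start in the reference had an ETS-only region within 1 kb of it.

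The genes of the 3 ETS factors themselves each had one. In Erg a region with Spi1 and Fli1 lay inside the gene 29.1 kb after a start (chr16:95429905-95430535), and another lay 14.2 kb beyond its upper boundary (chr16:95600557-95600982). In the former the Spi1 and Fli1 midpoints lay 231 bp apart, far above the median. The Fli1 gene had a region with Spi1 and Fli1 inside it (chr9:32445732-32446148) and one with all 3 factors 27.4 kb above it, with an offset of 7 bp (chr9:32570625-32571047). Spi1 had one 16.5 kb above the gene (chr2:91132055-91132524). Above and below mean higher and lower coordinates.

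Of the other factor genes, Tal1 had 2 regions, and Runx1, Meis1, Cebpa, Cebpb and Gfi1 had 1 each. Tal1, a helix-loop-helix regulator of blood formation, had a region 4.97 kb after a start with Spi1 and Fli1 midpoints 1 bp apart (chr4:115062582-115062982) and one 6.66 kb below the gene (chr4:115049481-115050062). Runx1, needed for the first blood stem cells, had one inside the gene (chr16:92701907-92702323), 4.79 kb before a start. The region of Meis1, a homeodomain partner of Hox proteins, lay 7.72 kb above it (chr11:19027151-19027590). Those of Cebpa and Cebpb, both regulators of granulocyte and macrophage genes, lay 45.2 kb (chr7:35166921-35167352) and 22.7 kb above (chr2:167712867-167713301). The region of Gfi1, a repressor needed for neutrophils, lay 35.2 kb below (chr5:107681294-107681711).

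The other lists lay on both sides of the 24.2% background. Ribosomal protein loci held an ETS-only region in 14 of 24 (58.3%), at a median locus length of 104 kb, mitochondrial genes in 10 of 23 (43.5%) and proteasome and ubiquitin genes in 8 of 20 (40%). PU.1 target genes of myeloid cells stood at 8 of 22 (36.4%), leukocyte signalling at 7 of 20 (35.0%), erythroid and megakaryocyte genes at 7 of 20 (35.0%) and the ETS family at 9 of 26 (34.6%). Lower counts came from DNA replication and repair (6 of 21, 28.6%), translation (5 of 20, 25%), splicing (5 of 21, 23.8%), lymphoid progenitor genes (5 of 22, 22.7%) and liver genes (4 of 20, 20%). Neuron genes, which these cells should not need, stood at 8 of 20 (40%), the same as the proteasome list. A locus also takes in neighbouring genes. Regions with Spi1, Erg or Fli1 and other factors were in 22 of 24 ribosomal protein, 16 of 23 mitochondrial and 16 of 20 proteasome loci. They were in 20 of 22 PU.1 target, 20 of 20 leukocyte signalling, 9 of 20 liver and 10 of 20 neuron loci, beside 59.5% of all genes.

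Where no gene of a list had a region at the start, the members of the list with most regions were these. Cd79a, the signalling chain of the B cell receptor, had 2, of which 1 lay 0.211 kb above the gene (chr7:24901867-24902272). Aars, the alanine tRNA ligase, had 2 with Erg and Fli1, one of them centred 0.019 kb below the gene (chr8:111027520-111027998). That region spanned the upstream boundary of Aars but lay 6.08 kb before the start used here, so it was not counted as at a start. Eef2, an elongation factor, also had 2. Alas2, the first enzyme of haem synthesis in red cells, had 1 region 17.5 kb above (chrX:150587959-150588363). Apoa1, an apolipoprotein of liver, had 1 region with Erg only, 42.6 kb above (chr9:46272846-46273316).

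Single genes rarely gathered many ETS-only regions, and 1 gene had as many as 5. This was Prkce, protein kinase C epsilon, a gene of 490 kb, while the median locus of all genes was 117 kb. Spi1 and Fli1 were at all 5 of its regions. Of these, chr17:86237381-86237799, chr17:86382412-86382858 and chr17:86479359-86479785 lay inside the gene, chr17:86128194-86128637 lay 39.4 kb below and chr17:86685175-86685660 lay 27.5 kb above. Of the genes with 4, the rule took 9, and 5 of these share a stretch of chromosome 10. Elane and Prtn3, which encode neutrophil serine proteases, and Cfd, which encodes complement factor D, lie there beside Med16 and Plppr3. Their 4 shared regions were chr10:79854752-79855185, with Erg and Fli1, and chr10:79901136-79901554, chr10:79916718-79917125 and chr10:79923496-79923947, with Fli1 only. Relative to Elane the first lay 31.3 kb below and the others 13.1, 28.7 and 35.5 kb above. The first was centred 536 bp from the start of Ptbp1 and the third 9 bp from that of R3hdm4, and the second lay inside Med16. None lay within 1 kb of the start of Elane, Prtn3 or Cfd. Fosl1, an AP-1 subunit, and Hdac5, a histone deacetylase, with its neighbour Hrob, each had 4, of which 2 had Erg and Fli1, and Acer3, a ceramidase, had 4, of which 1 had Erg and Fli1. In Hdac5, chr11:102208259-102208659 and chr11:102209755-102210210 lay inside the gene.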

How the data were processed

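ChIP-seq peak lists of 13 factors (1 library each) were used. The submitters' processing notes name Bowtie2, MACS2, bedtools, mm10 and GRCm38. Versions, thresholds and whether peaks were called against the IgG library are not stated in what was used. The authors deposited 3 columns (chromosome, start and end), every peak 400 bp wide, with no score or count, so depth is unknown; a deeper library can give a longer list, and the absence of a peak is not the absence of binding. The other lines, on neither an autosome nor X, were left out.

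Peaks that touched or overlapped were merged. Regions were placed against 21627 protein-coding genes of a RefSeq table (GRCm38.p6), which has no exons, and against starts with strand from RefSeq promoter sequences of the same build. The start table has 17273 of these genes on 18 autosomes and X, and chromosome 18 stays out of shares at starts; the planned gene boundaries were used only as an alternative. Motifs were searched on both strands. Shares have exact 95% intervals, differences Newcombe intervals, medians order-statistic intervals and densities exact Poisson intervals. No test was run, since each factor has 1 library. Python 3.11.15, NumPy 2.4.6, pandas 2.3.3, SciPy 1.17.1, statsmodels 0.14.6 and Matplotlib 3.10.9 were used, and the classification was tested on simulated data.

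Regions, gene lists and motifs were chosen with earlier results of these data known. Named genes are the factor genes; of each list, up to 4 with a region within 1 kb of the start, or else up to 2 with most regions in the locus; and the 10 genes with most regions. Named regions are the 5 closest sets of 3 midpoints. Of the promoters meant to be printed (a region with all 3 ETS factors over the whole window of a listed gene), 1 qualified. Not all names taken by the rule are printed. Alternatives changed the overlap, the merging gap, the windows, the lists and their lengths.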

Additional observations from a re-analysis of the deposited data

How the results depend on the processing

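No paired analysis was possible because each factor has 1 library and no result comes from a test. Requiring an overlap of 200 bp gave 2750 ETS-only regions, and leaving out each of the other 10 lists in turn gave 2622 to 3651 regions, with 19% to 23.9% at starts. The first 50% of every list gave 1723 regions with 27.2% at starts and a median offset of 17.0 bp. The first 50% of only the other 10 lists gave 5885 regions with 24.9% at starts. Requiring both Erg and Fli1 gave 325 regions with 46.5% at starts, and keeping at most the first 9014 lines of each list gave 794 with 10.7%. With no other factor's peak within 1 kb 16.2% were at starts. A window of 500 bp gave 16.1%, one of 2 kb 22.8%, and boundaries at either end of the gene 23.1%. The locus with 10 kb either side held an ETS-only region for 2544 genes. Places in the lists moved to 45.3% at starts and 20.2% away from them for Spi1, and to 60% and 68.8% for Fli1. For partly covered promoter windows the share with AGGAAG was 44.1%. In each of these settings where regions with Spi1 alone were computed, the share at starts was higher in the ETS-only regions. The settings with no other peak within 1 kb and with both partners required filtered only the ETS-only regions. Their comparison was thus with all regions of Spi1 alone (5.42%). For the values that moved, the cause was not tested. Unknown depth limits what the absence of a peak can mean.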

Other observations

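Gene families given by the start of the symbol were chosen with results known, and they are values without a test. An ETS-only region lay within 1 kb of the start of 6 of 77 ribosomal protein symbols beginning Rpl or Rps (7.79%, exact interval 2.91 to 16.2): Rpl28, Rpl6, Rpl7l1, Rps13, Rps19bp1 and Rps6, of which Rps19bp1 encodes a binding protein rather than a ribosomal protein. Proteasome symbols beginning Psm had 4 of 43 (9.30%, 2.59 to 22.1): Psmb3, Psmc4, Psme1 and Psme2. Zinc finger genes beginning Zfp had 17 of 333 (5.11%, 3 to 8.05), mitochondrial ribosomal genes 3 of 69 (4.35%), complex I genes beginning Nduf 1 of 42 (2.38%), transporters beginning Slc 8 of 302 (2.65%) and membrane proteins beginning Tmem 5 of 191 (2.62%), beside 3.18% of all genes with a start. Olfactory receptor genes, which are silent outside a few cell types, had 1 of 944 (0.106%), Olfr67. A region with any other factor lay within 1 kb of the start of 72.1% of the Psm genes, 67.5% of the Rpl and Rps genes, 88.4% of the mitochondrial ribosomal genes, 73.8% of the Nduf genes, 49.8% of the Zfp genes and 2.86% of the olfactory receptor genes, beside 41.5% of all genes with a start.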
